A study of Mus musculus with 14 samples.

Results

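A set of 10 immediate early genes was followed library by library among the 21853 protein-coding genes of the series. They were Fos, Fosb, Fosl2, Jun and Junb, which encode subunits of the AP-1 transcription factor, Egr1 and Egr2, which encode zinc finger factors of the EGR family, and Atf3, Ier2 and Nr4a1. All 10 were found by symbol, and they were chosen from their OC and OT levels in these same libraries. Their differences between OC and OT are therefore given as a description, with no test.

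Immediate early genes are transcribed within minutes of a stimulus, because the factors that switch them on, such as SRF with its ternary complex partners and CREB, are already present in the resting cell. Their mRNAs are short-lived, and the proteins in turn regulate a later set of genes. In the ovary they are known from the response of follicles to the luteinizing hormone surge, and in many tissues from the response to growth factors, mechanical load, stress and tissue handling.

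RNA-seq libraries of total RNA depleted of rRNA came from the ovary and the uterus of 7 female C57BL/6J mice aged 28 weeks when they were divided into groups. The 4 old treatment (OT) mice received, by tail vein, medium conditioned by mesenchymal stem cells of the human amniotic membrane (AMSC-CM, a mixture from 3 donors) in 6 injections spaced 4 days apart, at 1 µL per g of body weight. The 3 old control (OC) mice received saline in its place, and all mice had first been given pregnant mare serum gonadotropin (10 IU) and, 48 h later, human chorionic gonadotropin (10 IU). The time from the last injection to the collection of the tissues is not given in the sources used here. Same-numbered ovaries and uteruses of a group were taken as the organs of 1 mouse, as the library names imply.

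Values were deposited as FPKM (fragments mapped to a gene, divided by transcript length and by all mapped fragments), so that sequencing depth is unknown. The total FPKM of a library lay between 374816 and 397644 in the ovaries and between 425875 and 471907 in the uteruses other than OT1, which had 577494. Luteal and theca genes summed to 5190 to 6490 FPKM in the ovaries against 8.82 to 13.3 FPKM in the uteruses. Uterine stroma and muscle identity genes summed to 366 to 632 FPKM in the uteruses against 65.0 to 177 FPKM in the ovaries. Sums of uterine epithelial genes overlapped, at 163 to 583 FPKM in the uteruses and 130 to 251 FPKM in the ovaries. The oocyte genes Figla and Zp3 and the granulosa gene Fshr were at 0 in every uterus. The other genes of both lists were not. Oocyte genes summed to 0.507 to 2.01 FPKM in the uteruses against 17.7 to 40.5 FPKM in the ovaries. Granulosa genes summed to 20.8 to 43.8 FPKM in the uteruses against 394 to 899 FPKM in the ovaries. The mouse OT1 was singled out after the values had been seen. OT1 had the highest sum of 10 adipocyte markers in both of its organs, 1900 FPKM in the ovary and 12200 FPKM in the uterus. Next came OT2 among the ovaries, at 1370 FPKM, and OT3 among the uteruses, at 2470 FPKM. The OT minus OC values of the members below are given with and without this mouse.

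The promoters of the members are shown first, because they are where the signal-responsive factors act and because several of these genes moved together in 1 mouse. RefSeq promoter windows were held for 8 of the 10 genes. Egr1 and Ier2 had no entry. The lines give the 150 bases before the RefSeq start in the GRCm38.p6 build, read 5′ to 3′ on the strand of the gene. Capitals mark TGACG, the core of the site that CREB and ATF factors bind, which reads CGTCA when it lies on the opposite strand. They also mark the TATA box TATAAA and the CArG box, the element bound by SRF.
Fos (chr12:85473740-85473889, plus strand): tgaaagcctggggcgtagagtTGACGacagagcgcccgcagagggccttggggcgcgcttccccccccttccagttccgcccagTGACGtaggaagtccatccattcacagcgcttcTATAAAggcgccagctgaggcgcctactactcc
Fosb (chr7:19310046-19310195, minus strand): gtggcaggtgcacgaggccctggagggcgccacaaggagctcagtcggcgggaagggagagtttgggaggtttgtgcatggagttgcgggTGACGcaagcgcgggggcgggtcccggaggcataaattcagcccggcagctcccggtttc
Junb (chr8:84978749-84978898, minus strand): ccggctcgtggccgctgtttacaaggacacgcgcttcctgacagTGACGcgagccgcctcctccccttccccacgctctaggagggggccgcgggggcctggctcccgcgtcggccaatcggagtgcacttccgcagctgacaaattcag
Jun (chr4:95052223-95052372, minus strand): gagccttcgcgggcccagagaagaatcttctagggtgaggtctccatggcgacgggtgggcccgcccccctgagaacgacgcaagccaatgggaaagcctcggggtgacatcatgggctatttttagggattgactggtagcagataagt
Egr2 (chr10:67537719-67537868, plus strand): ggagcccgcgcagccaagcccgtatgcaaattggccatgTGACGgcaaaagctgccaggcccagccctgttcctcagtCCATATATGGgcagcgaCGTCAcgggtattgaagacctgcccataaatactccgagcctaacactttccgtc
Nr4a1 (chr15:101266696-101266845, plus strand): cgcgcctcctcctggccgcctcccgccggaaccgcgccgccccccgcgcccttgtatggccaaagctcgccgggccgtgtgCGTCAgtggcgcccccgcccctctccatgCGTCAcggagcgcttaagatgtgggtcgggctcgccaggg
The TGACG core was found in the 250 bases before the start of 6 of the 8 genes, Fos, Fosb, Junb, Egr2, Atf3 and Nr4a1, against 17.8% of all 32851 windows searched on both strands. Fos and Egr2 carried 2 copies each, and so did Nr4a1. The only Atf3 match in the last 150 bases lay 7 to 3 bases before the start, within 7 bases that are exonic in GENCODE. The full palindrome TGACGTCA, which contains that core, was in none of the 8 windows and in 1.55% of all. A CArG box was found only in Egr2 (1.47% of windows), and TATAAA on the strand of the gene only in Fos (7.59%). The EGR site GCGNGGGCG was in the windows of Fosb, Fosl2 and Nr4a1 (4.70% of windows), and the AP-1 site TGANTCA was in none (6.75%). These matches describe letters in a short window. Elements further upstream, such as enhancers, were not searched.

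Most of the genes were also compact. By the GENCODE annotation, Fos spans chr12:85473890-85477273, Fosb chr7:19302696-19310051, Jun chr4:95049034-95052222, Junb chr8:84974484-84978718, Ier2 chr8:84661331-84662852 and Nr4a1 chr15:101254269-101274795. Jun, Junb and Ier2 have 1 exon in the longest complete coding transcript, Egr1 and Egr2 have 2, Fos, Fosb, Fosl2 and Atf3 have 4, and Nr4a1 has 8. All 10 lie below the median of 9 exons over 14892 expressed genes, and their median span was 5938 bases against 23779.5 bases. Of the 10 spans, 9 were below that median, and that of Atf3, at 47744 bases, was above it. The letters ATTTA, the core of AU-rich elements that shorten the life of an mRNA, occur in the 3′ untranslated region of 9 of the 10, against 67.6% of those genes. At least 3 copies occur in 6 of the 10, against 36.5%. Ier2 has none, and Nr4a1 has the highest density, 5.52 copies per kb.

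Fos, the founding member of the AP-1 family, was the gene with the clearest pattern. In the ovary, Fos stood at 6.14, 2.59 and 2.43 FPKM in OC1, OC2 and OC3. In the OT ovaries it stood at 45.7, 5.14, 5.00 and 4.38 FPKM in OT1 to OT4. OT1 alone was far above the rest, and the other 3 OT ovaries lay between OC1 and the remaining OC ovaries. The uterus held the same picture, with 12.7, 4.12 and 2.96 FPKM in the OC mice and 47.3, 3.71, 3.47 and 3.00 FPKM in the OT mice. In both organs OT1 was highest and OC1 was second. The OT1 value was 7.44 times that of the next library in the ovary and 3.73 times in the uterus. On the log2(FPKM + 0.1) scale, the OT minus OC difference of Fos was 1.30 (SE 0.78) in the ovary and 0.29 (SE 0.98) in the uterus, and without OT1 it was 0.50 and -0.66. As a ratio of means, OT over OC fell from 4.05 to 1.30 in the ovary when OT1 was left out, and from 2.18 to 0.515 in the uterus.

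Fosb, the paralogue of Fos, was the lowest of the members and had the largest ratio for OT1. In the OC ovaries it measured 0.448, 0.207 and 0.051 FPKM. The OT ovaries measured 11.0, 0.531, 0.244 and 0.808 FPKM, so that OT1 was 13.6 times the next library and the other 3 overlapped the OC range. Uterine levels were 1.03, 0.637 and 0.334 FPKM in OC mice and 4.97, 0.406, 0.492 and 0.630 FPKM in OT mice, with OT1 at 4.82 times OC1, the next highest. On the log2 scale the difference was 2.05 (SE 1.10) in the ovary and 0.53 (SE 0.83) in the uterus, and without OT1 it was 0.99 and -0.24. Without OT1 the mean of the ovary libraries was 0.382 FPKM, under the minimum of 0.5 FPKM used for testing, so Fosb entered the ovary fit through that library.

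Egr1, a zinc finger factor induced by growth factors, was also highest in OT1 in both organs. Its ovary levels were 10.8, 8.75 and 7.88 FPKM in OC and 36.1, 12.7, 11.1 and 10.5 FPKM in OT. In the uterus they were 14.8, 10.2 and 9.02 FPKM in OC and 32.9, 8.10, 8.56 and 9.99 FPKM in OT. OT1 was 2.84 times the next library in the ovary and 2.22 times in the uterus, and the other 3 uteruses of the OT group all lay below OC2. Ier2, a small early response gene whose product acts in the nucleus, held a narrow range of 14.1 to 16.0 FPKM in 6 of the 7 ovaries and was 36.2 FPKM in OT1. Its uterine values were 17.1, 15.0 and 13.3 FPKM in OC and 41.4, 11.1, 19.6 and 16.0 FPKM in OT. Again the OT group without OT1 overlapped the OC group in both organs. The OT minus OC log2 difference of Egr1 was 0.74 (SE 0.39) in the ovary and 0.15 (SE 0.48) in the uterus, and it was 0.33 and -0.32 without OT1. For Ier2 these values were 0.39 (SE 0.28) and 0.37 (SE 0.39), and 0.09 and 0.01 without OT1.

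The JUN proteins are the partners that FOS proteins need to bind DNA. Jun was the steadier of the pair. In the ovary it lay between 46.4 and 47.0 FPKM in the 3 OC mice and between 42.0 and 45.3 FPKM in OT2, OT3 and OT4, against 73.1 FPKM in OT1. In the uterus it was 91.5, 66.0 and 74.0 FPKM in OC and 111, 66.9, 83.6 and 81.5 FPKM in OT, so OT1 exceeded OC1 by a factor of 1.22 only. Junb was 22.6, 25.4 and 21.8 FPKM in the OC ovaries and 44.6, 31.2, 22.9 and 23.8 FPKM in the OT ovaries. Its uterine values were 26.0, 18.8 and 21.8 FPKM in OC and 73.0, 25.2, 22.7 and 24.6 FPKM in OT. For Junb the OT1 excess was larger in the uterus (2.81 times the next library) than in the ovary (1.43 times), the reverse of Fos and Fosb; the difference between the organs was not tested. The OT minus OC log2 difference of Jun was 0.10 (SE 0.17) for the ovary and 0.14 (SE 0.20) for the uterus, and without OT1 it was -0.09 and 0.01. That of Junb was 0.35 (SE 0.21) and 0.53 (SE 0.40), and 0.15 and 0.13 without OT1.

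**Figure D1:**
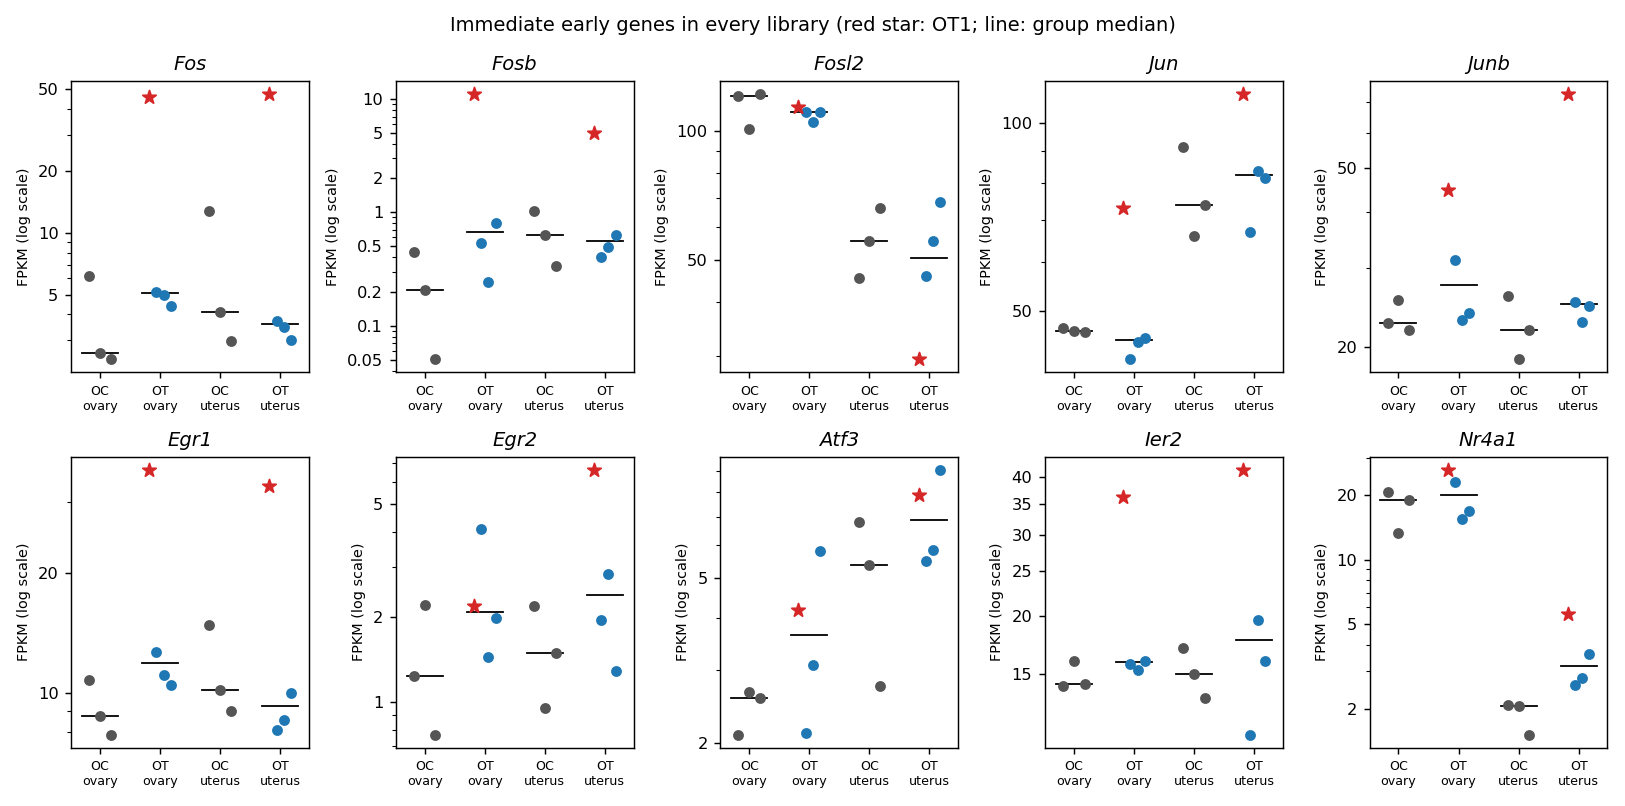
FPKM of each member in every library on log axes, by group and organ, with a line at the group median and a red star for OT1. OT1 is the highest library in both organs for Fos, Fosb, Jun, Junb, Egr1, Ier2 and Nr4a1, while its Fosl2 is the lowest of the uteruses at 29.5 FPKM.

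The remaining 4 members, Nr4a1, Atf3, Egr2 and Fosl2, did not share that pattern in full. Nr4a1, an orphan nuclear receptor induced by gonadotropins in steroid-producing cells, was 20.7, 13.3 and 19.1 FPKM in the OC ovaries and 26.3, 23.2, 15.5 and 16.9 FPKM in the OT ovaries, which overlapped (log2 difference 0.20, SE 0.21, and 0.07 without OT1). In the uterus it was 2.08, 2.06 and 1.52 FPKM in OC and 5.57, 2.58, 2.78 and 3.60 FPKM in OT. It was the only member with every OT library above every OC library, and that in the uterus alone. There the log2 difference was 0.86 (SE 0.30) with OT1 and 0.63 (SE 0.23) without it.

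Atf3, a stress-induced member of the CREB family, was highest in OT4 and second in OT1 in both organs. It was 2.10, 2.65 and 2.57 FPKM in the OC ovaries and 4.18, 2.12, 3.09 and 5.79 FPKM in the OT ovaries. The OC uteruses had 6.78, 5.36 and 2.75 FPKM and the OT uteruses 7.91, 5.47, 5.83 and 9.06 FPKM. The groups overlapped in each organ, and the log2 differences of 0.53 (SE 0.31) and 0.56 (SE 0.33) moved little without OT1, to 0.46 and 0.50. Egr2, a relative of Egr1 known from nerve and immune cells, was highest in OT2 in the ovary and in OT1 in the uterus. Its values were 1.24, 2.21 and 0.769 FPKM in the OC ovaries against 2.19, 4.11, 1.44 and 1.99 FPKM in the OT ovaries. In the uteruses they were 2.18, 0.954 and 1.49 FPKM against 6.62, 1.95, 2.85 and 1.29 FPKM. The ovary difference of 0.76 (SE 0.41) was 0.78 without OT1, and the uterus difference of 0.81 (SE 0.54) was 0.38.

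Fosl2, the FOS relative with the highest basal level here, went the other way in the OT1 uterus. The OC ovaries measured 121, 101 and 122 FPKM and the OT ovaries 114, 111, 105 and 111 FPKM, a spread in which no library stood out. In the uterus, OC mice had 45.4, 55.4 and 66.4 FPKM and OT mice 29.5, 46.0, 55.5 and 68.5 FPKM, with OT1 lowest and OT4 highest. The OT minus OC log2 difference was -0.06 (SE 0.08) in the ovary and -0.21 (SE 0.28) in the uterus, against -0.07 and 0.02 without OT1.

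Counted over the list, OT1 held the highest value of 7 of the 10 genes among the ovaries and of 8 among the uteruses. Over all genes tested, OT1 was highest for 16.5% of 14415 among the ovaries and for 31.0% of 14151 among the uteruses. It was at least 2 times every other library for 4 members in the ovary, where 0.229% of genes were, and for 6 members in the uterus, where 3.61% were. This measure was defined after the values had been seen, and the members were known from the same libraries, so nothing is read from the shares. Among the OC libraries, OC1 was highest for 5 members in the ovary and 9 in the uterus. For Fos, Fosb, Jun, Egr1 and Nr4a1 it was so in both organs. The share of all genes with OC1 highest among the OC libraries was not computed, so nothing is read from these counts.

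Only 11 of the 13653 genes tested in both organs (0.0806%) were at least 2 times every other library in OT1 in the ovary and again in the uterus. Fos, Fosb, Egr1 and Ier2 were 4 of them. The other 7, named after their values were seen, were Acsm3, Adig, Klb, Lgals12, Mogat1, Pck1 and Pnpla3. Several of these are known from fat cells or lipid metabolism: Adig (adipogenin) and Lgals12 (galectin-12) are adipose genes, Pck1 encodes the cytosolic phosphoenolpyruvate carboxykinase, and Mogat1 an enzyme of acylglycerol synthesis. The balance between the organs differed within the 11. Pck1 in OT1 was 2.77 times the next library in the ovary and 6.48 times in the uterus, whereas Fos was 7.44 and 3.73 times.

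**Figure D2:**
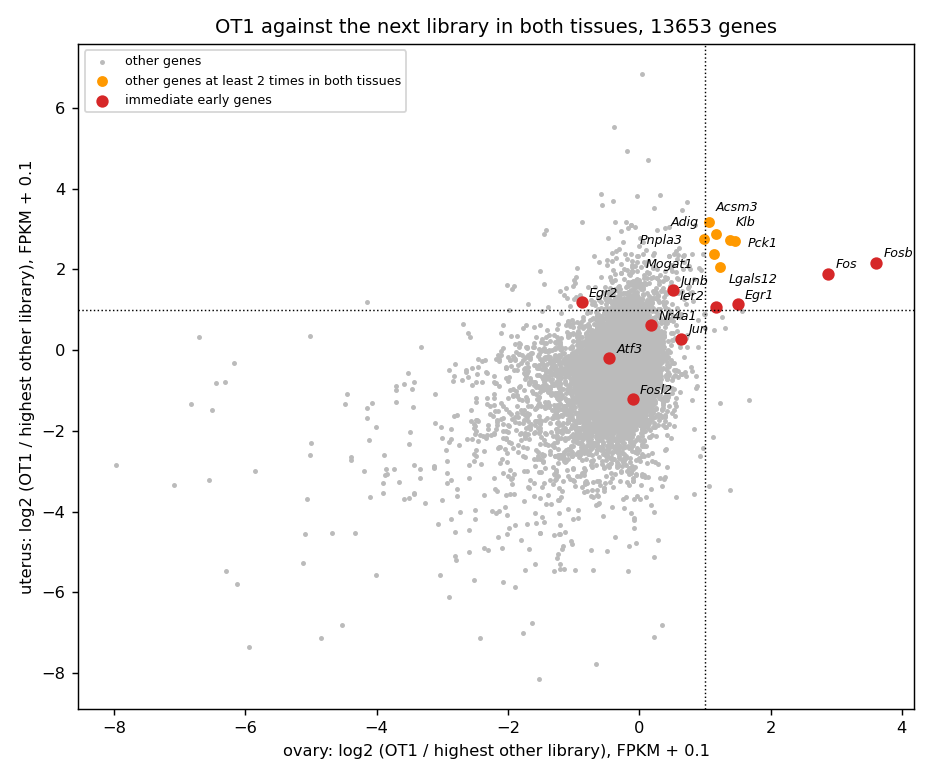
Each point is 1 of the 13653 genes tested in both organs, placed by the log2 ratio of OT1 to the highest other library (FPKM + 0.1) in the ovary and in the uterus, with dotted lines at a ratio of 2. Fos and Fosb lie furthest to the right of the genes in the upper right corner, and the 7 other named genes have a larger ratio in the uterus than in the ovary.

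Adipocyte markers moved with OT1 as well. Their sum was 235, 200 and 326 FPKM in the OC ovaries and 1900, 1370, 258 and 471 FPKM in the OT ovaries. In the uteruses it was 103, 311 and 300 FPKM in OC and 12200, 1360, 2470 and 1380 FPKM in OT. None of the 10 markers was at 0 throughout an organ; 5 of 10 passed the cutoffs given below as higher in OT in the ovary (3 without OT1), and 10 of 10 in the uterus, also without OT1. The OT2 ovary, with an adipocyte sum of 1370 FPKM, had 5.14 FPKM of Fos, and the OT3 uterus, with 2470 FPKM, had 3.47 FPKM. In the other direction, the OC1 uterus had the lowest adipocyte sum of all libraries, 103 FPKM, and 12.7 FPKM of Fos. Brown adipocyte markers summed to 706 FPKM in the OT1 uterus and to 16.7 to 47.4 FPKM in the other uteruses, and in the ovaries to 14.6 to 21.2 FPKM with Ucp1 at 0 in all of them. Red blood cell genes were highest in the OT1 uterus too, at 1230 FPKM, but the OT1 ovary (195 FPKM) lay within the range of the OC ovaries (176 to 242 FPKM). Other lists moved as well. Among the ovaries, OT1 had the lowest sums of smooth muscle genes (911 FPKM against 1270 to 2810 FPKM) and of squamous epithelial genes (34.1 against 42.1 to 73.1 FPKM). That squamous sum was nearly all 1 gene, Sbsn, at 32.8 FPKM in OT1. Trp63, of the same list, was 0.857 FPKM in the OT1 ovary, below only OC1 at 0.929 FPKM. The OT1 ovary was also lowest for uterine stroma and muscle identity genes (65.0 against 78.3 to 177 FPKM). Its uterine epithelial sum was lowest too (130 against 165 to 251 FPKM). The OT1 uterus had the lowest sums of uterine epithelial genes (163 FPKM against 314 to 583 FPKM in the other uteruses) and of uterine stroma and muscle identity genes (366 against 449 to 632 FPKM). Its neutrophil sum was the highest (42.4 against 5.70 to 21.5 FPKM), but Retnlg alone gave 39.9 FPKM of it. The neutrophil genes S100a8, S100a9 and Csf3r were highest in the OT3, OC3 and OT2 uteruses. Over all OT uteruses, squamous epithelial genes summed to 58.5 to 784 FPKM against 12.1 to 23.0 FPKM in OC, and B and plasma cell genes to 16.5 to 115 FPKM against 7.50 to 10.9 FPKM. The part of these cells in the values of the early genes was not tested. In bulk tissue, a change in the number of cells of a type and a change in RNA per cell cannot be told apart.

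**Figure D3:**
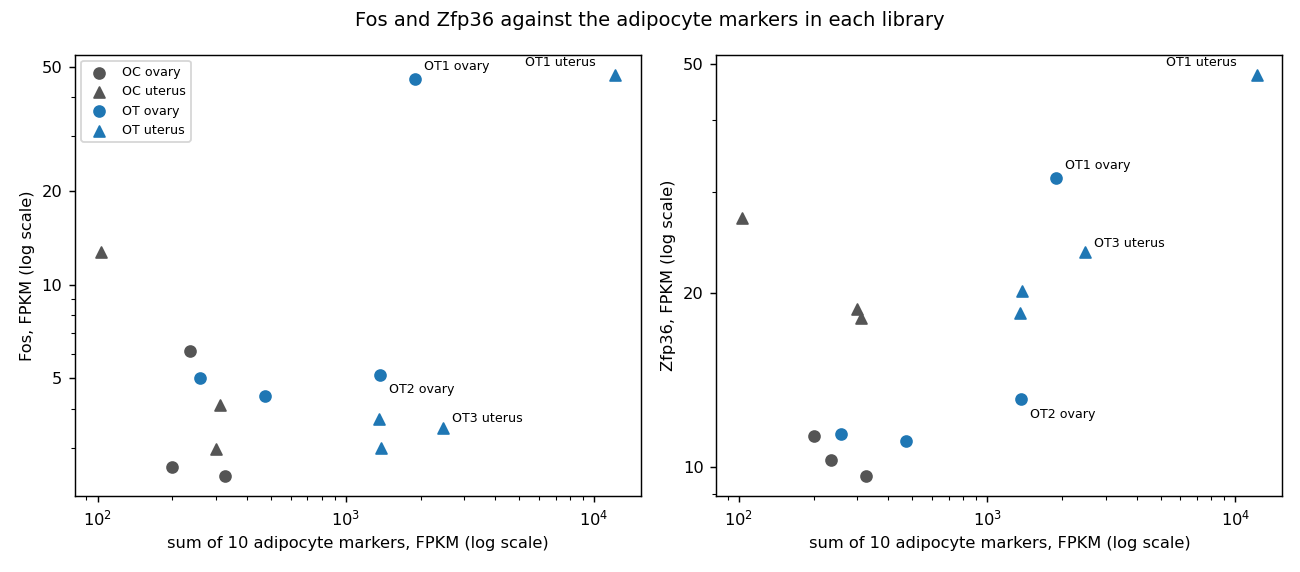
Fos (left) and Zfp36 (right) in FPKM against the summed FPKM of 10 adipocyte markers, 1 point per library, log axes. OT1 is highest on both axes in each organ, and the OT2 ovary and OT3 uterus have high adipocyte sums with Fos at 5.14 and 3.47 FPKM.

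The question of the study was whether AMSC-CM changes the ageing reproductive organs. Besides assays of oxidative stress markers and serum hormones that included young mice, it compared OT with OC within each organ by RNA-seq. The study used Cuffdiff, a test on mapped reads, with cutoffs of 2 on the fold change and 0.05 on p. It listed Fos and Fosb as higher in OT in both organs. Cuffdiff was not run here. With cutoffs of 2 on the fold change and 0.05 on the unadjusted p by limma, 0 of the 10 members passed in the ovary and 0 in the uterus, a count that is given as a description and from which nothing is read, since the members were known from this contrast. Of all genes tested, 0.368% passed as higher and 0.0832% as lower in OT in the ovary. In the uterus these shares were 2.23% and 0.664%. The member count for the ovary was 1 without OC2 (Egr2) and 1 without OT3 (Fosb). By limma the adjusted p was under 0.05 for 0 of all genes in either organ, while 650 and 1160 had an unadjusted p under 0.05. Over all genes tested, the OT minus OC difference was above 0 for 46.6% in the ovary and 51.1% in the uterus. The difference was above 0 for 9 of the 10 members in each organ, and the median over the members was 0.46 for the ovary and 0.45 for the uterus. Without OT1, it was above 0 for 8 and 7 members, and the median was 0.24 and 0.02. Over all genes it was -0.01 and 0.01. The OT group lay wholly above the OC group for 0 members in the ovary and 1 in the uterus, beside 2.78% and 6.46% of all genes with every OT library above every OC library. With the mean adipocyte marker level as a covariate, the median over the members was -0.08 for the ovary and -0.64 for the uterus, and Fos in the ovary was -0.04 (SE 0.86). Fos in the uterus was -2.32 (SE 1.70). In the uterus every OT adipocyte sum lay above every OC sum, so the fit cannot well separate the treatment from the covariate there.

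**Figure D4:**
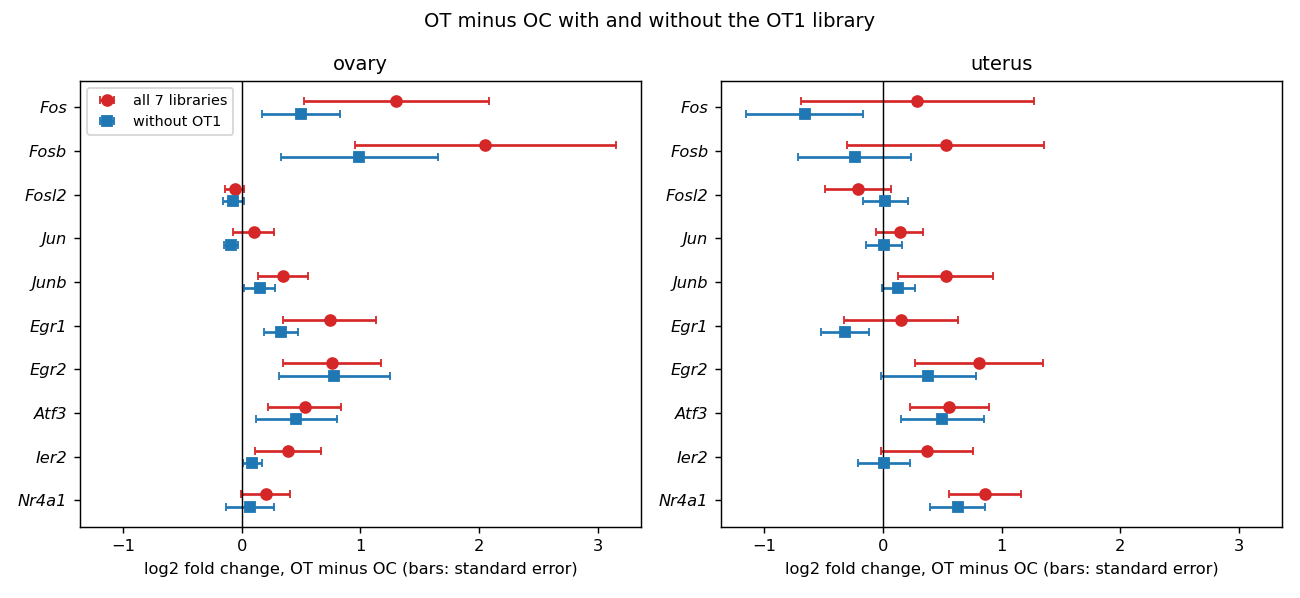
OT minus OC log2 fold change of each member in the ovary and the uterus, with all 7 libraries (red circles) and without OT1 (blue squares), and standard errors as bars. Fos in the ovary moves from 1.30 to 0.50 and in the uterus from 0.29 to -0.66, while Atf3 moves from 0.53 to 0.46 and from 0.56 to 0.50.

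The uterus minus ovary difference did not enter the choice of the genes, and it was tested by limma over all 14 libraries, with OC and OT weighted equally. Nr4a1 was 7.08-fold higher in the ovary (log2 difference -2.82, SE 0.19, adjusted p = 6.14e-08), at 19.3 ± 4.51 FPKM against 2.89 ± 1.36 FPKM in the uterus (SD, n = 7 each). Fosl2 was 2.19-fold higher in the ovary (-1.13, SE 0.16, adjusted p = 4.31e-05 by limma), at 112 ± 7.60 FPKM against 52.4 ± 13.5 FPKM. Both were higher in the ovary in 7 of 7 mice. These 2 of 10 members passed as higher in the ovary, where 9.59% of 14557 genes did, and 0 of 10 passed as higher in the uterus, where 10.0% did.

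Jun and Atf3 were higher in the uterus in 7 of 7 mice but stayed under the fold change of 2. Jun was 49.3 ± 10.6 FPKM in the ovary and 82.1 ± 15.8 FPKM in the uterus (log2 difference 0.73, SE 0.14, adjusted p = 0.00064 by limma). Atf3 was 3.22 ± 1.34 FPKM in the ovary and 6.17 ± 2.03 FPKM in the uterus (0.93, SE 0.24, adjusted p = 0.00557 by limma). Its difference was 1.13 without the mouse OC3 and then passed. With the mouse as a block the calls were the same, and Fosl2 and Nr4a1 had adjusted p-values of 0.000269 and 2.21e-06 by limma. Without OT1, the same 2 passed, with log2 differences of -1.01 for Fosl2 and -2.87 for Nr4a1, and those of Jun and Atf3 were 0.76 and 0.93. The other 6, Fos, Fosb, Junb, Egr1, Egr2 and Ier2, had log2 differences between -0.01 and 0.52, each below its standard error.

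The order of the members by median level reflected these differences. In the ovary it ran from Fosl2 (111 FPKM) through Jun (46.4), Junb (23.8), Nr4a1 (19.1), Ier2 (15.8), Egr1 (10.8), Fos (5.00), Atf3 (2.65) and Egr2 (1.99) to Fosb (0.448). Over the 7 libraries, the ranges of 1 neighbouring pair, Fosl2 and Jun, did not overlap. Without OT1 this held for 4 pairs, also Jun and Junb, Ier2 and Egr1, and Egr1 and Fos. In the uterus it ran from Jun (81.5 FPKM) through Fosl2 (55.4), Junb (24.6), Ier2 (16.0), Egr1 (9.99), Atf3 (5.83), Fos (3.71), Nr4a1 (2.58) and Egr2 (1.95) to Fosb (0.630), and every neighbouring pair overlapped, but for Fosl2 and Junb once OT1 was left out. Nr4a1 thus stood above Ier2 among the ovaries and below Fos among the uteruses.

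**Figure D5:**
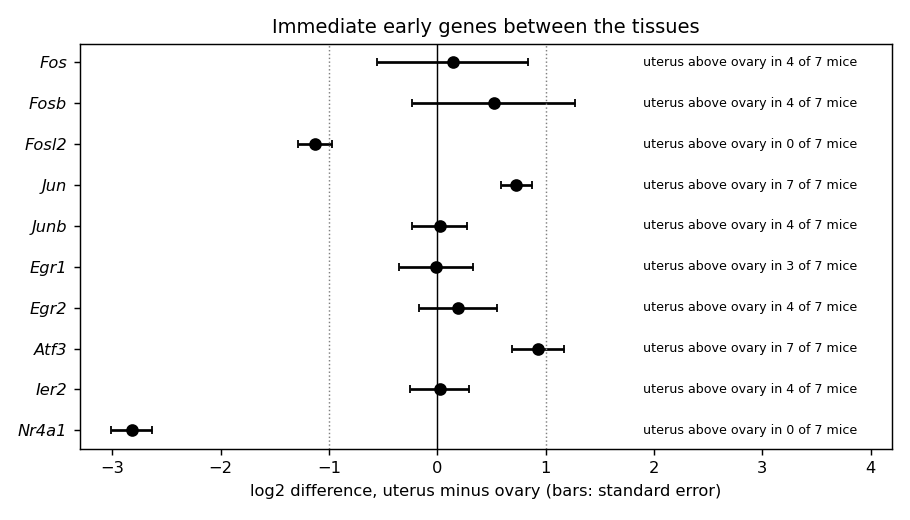
Uterus minus ovary log2 difference of each member with its standard error, dotted lines at a fold change of 2, and the number of mice with the higher value in the uterus. Nr4a1 and Fosl2 lie left of the lower line with 0 of 7 mice, and Jun and Atf3 lie between 0 and the upper line with 7 of 7.

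The OT minus OC difference was also compared between the organs as an estimate, with no test, since it shares the contrast by which the genes were known. It was lower in the uterus by 1.52 (SE 1.50) for Fosb and by 1.02 (SE 1.40) for Fos on the log2 scale, and higher in the uterus by 0.66 (SE 0.38) for Nr4a1. For Egr1 it was lower by 0.59 (SE 0.69). These standard errors ignore that both organs came from the same mice. With the mouse as a block, the estimates were the same and their standard errors were 0.53 for Fosb, 0.26 for Fos, 0.31 for Nr4a1 and 0.19 for Egr1. For the other 6 members the estimate was smaller than its standard error with or without the block.

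The wider early response was read from 102 genes in 8 lists, of which 96 were tested in the ovary and 93 in the uterus. Their median OT minus OC log2 difference was 0.01 and 0.05, near that of all genes. Past the cutoffs, 4 were higher and 0 lower in the ovary, and 2 were higher and 1 lower in the uterus, all with an adjusted p of at least 0.485 by limma. Over all genes tested, the shares were 0.368% and 0.0832% in the ovary, and those for the uterus were 2.23% and 0.664%, so that 2 of 93 higher there was near the share of all genes. In the ovary 2 passed without OT1, OT2 or OT4, and in the uterus between 1 (without OC1) and 5 (without OC3 or OT4). The 11 upstream factors (SRF, ternary complex and CREB factors) gave 0 calls in either organ, and their medians were -0.01 and -0.04. Srf itself was 16.0, 22.0 and 19.3 FPKM in the OC ovaries and 16.7, 17.1, 22.7 and 19.6 FPKM in the OT ovaries, with OT1 among the lowest. The 5 tested members of the other EGR and NR4A list, such as Egr3 and Nr4a2, also gave 0 calls in each organ, and OT1 was at least 2 times every other library for none of them. Among the other lists, OT1 reached that level for 1 gene in the ovary, a feedback inhibitor. In the uterus it did so for 1 of 10 other AP-1 and small MAF factors and 1 of 18 feedback inhibitors. It also did for 1 of 11 reported AP-1 or EGR1 targets, 3 of 22 other early response genes and 1 of 9 heat shock genes. Over all genes tested, 0.229% did in the ovary and 3.61% in the uterus.

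Feedback inhibitors of the early response were the list with most calls in the ovary, 2 of 18, with a median difference of 0.19, but neither call held without OT1. Socs3, which restrains cytokine signalling, was 7.82, 9.41 and 11.0 FPKM in OC and 22.7, 20.3, 13.4 and 21.1 FPKM in OT (log2 difference 1.02, SE 0.19, and 0.93 without OT1), so that every OT ovary was above every OC ovary. Dusp2, a phosphatase that acts on MAP kinases, had a log2 difference of 1.07 (SE 0.43) with overlapping groups, and of 1.07 without OT1. In the uterus, 1 of 18 passed. That gene, Dusp4, another such phosphatase, was 0.407, 0.204 and 1.60 FPKM in OC and 9.70, 1.86, 1.78 and 1.61 FPKM in OT, and its log2 difference of 2.13 (SE 0.78) was 1.53 without OT1.

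Among other AP-1 subunits and small MAF factors, 1 of 10 passed in the ovary and 0 of 10 in the uterus. Batf3, known from dendritic cells, had a log2 difference of 1.14 (SE 0.27) in the ovary and 1.17 without OT1. Among genes reported as AP-1 or EGR1 targets, 1 of 11 passed in the ovary, Ccl2, a monocyte chemokine (1.27, SE 0.25, and 1.28 without OT1). Ccl2 in the ovary was 1.93, 1.70 and 0.991 FPKM in OC and 3.63, 3.01, 4.10 and 4.27 FPKM in OT. The groups did not overlap in that organ, and OT1 lay in the middle. In the uterus Ccl2 did not pass, and OT1 was highest, at 9.0 FPKM against 1.75 to 3.75 FPKM in the other OT mice. The OC uteruses had 1.16 to 1.93 FPKM, so the groups overlapped. The uterine log2 difference of Ccl2 was 1.07 (SE 0.52), and 0.62 without OT1. Of the 22 other early response genes, 0 passed in the ovary and 1 in the uterus, Ccn2, a matricellular growth factor, as lower (-1.16, SE 0.31, and -1.11 without OT1). The ovulatory response genes gave 0 calls, with medians of -0.39 over 10 genes in the ovary and -0.31 over 7 in the uterus. The heat shock genes also gave 0 calls, with medians of -0.26 and 0.14 over 9 genes. Hspa1a, the inducible HSP70, was at 3.87 FPKM in the OT1 ovary, the lowest of the 7. In the OT1 uterus it was at 11.5 FPKM, within the 10.1 to 13.0 FPKM of the others. Some heat shock genes differed from Hspa1a there. OT1 was the highest uterus for 4 of the 9 genes, and at least 2 times every other uterus for 1 of them. Of the ovaries, OT1 was highest for 1 of the 9.

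The genes most like the members were sought by Pearson's r with the mean log2 level of the 10, as a description over libraries that share 1 far point, OT1. Over the 14 libraries, each organ centred on its mean, Zfp36 came first of 12815 genes (r = 0.967, n = 14). It encodes tristetraprolin, which binds AU-rich elements of the ATTTA kind and speeds mRNA decay. Zfp36 was 10.3, 11.3 and 9.65 FPKM in the OC ovaries and 31.7, 13.1, 11.4 and 11.1 FPKM in the OT ovaries. In the uteruses it was 27.0, 18.1 and 18.8 FPKM and 47.9, 18.5, 23.6 and 20.2 FPKM. As with Fos, OT1 was highest in both organs, and OC1 was second in the uterus but not in the ovary. Next came Trabd2b (0.946) and Cyp26b1 (0.942), whose product degrades retinoic acid. Cyp26b1 in OT1 was 9.56 FPKM against at most 3.17 FPKM in the other ovaries, and 6.23 FPKM against at most 3.13 FPKM in the other uteruses. The remaining 7 were Trdmt1, Dlc1, Keap1, Tollip, Ipo9, Bckdhb and Gm5617, with r between 0.873 and 0.897.

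Within 1 organ the lists differed. In the ovary (n = 7), Cecr2 (0.996), Nr0b1 (0.992), Bbs12, Rhobtb1, Dhrs3, Trabd2b, Cyp26b1, Fah, Gnal and Mut were nearest, with r of at least 0.964. In the uterus (n = 7), Mrpl39 (0.993), Ufm1 (0.991), Adipor2, Dbt, Hspd1, Dnaja3, Pfdn6, Surf4, Pcx and Pdhx were nearest, with r of at least 0.984. No gene was among the 10 of both organs.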

How the data were processed

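The authors prepared stranded total RNA libraries from 700 ng of RNA after rRNA depletion, trimmed reads with Skewer 0.2.2, mapped them to mm10 with STAR 2.5 and estimated expression with Cufflinks 2.2.1. The deposited values were FPKM of 21853 protein-coding genes in 14 libraries; counts and depth were not given, so precision rests on the spread between 3 or 4 mice. The study's test, Cuffdiff, works on mapped reads and was not run. Identifiers were matched to GENCODE M21 (21853 of 21853, with 24 symbols shared by more than 1 gene).

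A gene was fitted where its mean in the organ reached 0.5 FPKM, on log2(FPKM + 0.1) by limma 3.58.1 (lmFit, eBayes with trend) in R 4.3.3, with Benjamini-Hochberg adjustment. A fold change on this scale understates the change of low genes. OC and OT were compared in each organ with the study's cutoffs, a log2 fold change of 1 and an unadjusted p of 0.05; the organs were compared over 14 libraries with cutoffs of 1 and an adjusted p of 0.05. The steps were checked on simulated data. Summaries used Python 3.11.15 with pandas 2.3.3, numpy 2.4.6 and scipy 1.17.1, and plots matplotlib 3.10.9. Promoter windows came from RefSeq and gene models from GENCODE M21, both on GRCm38.p6. The RefSeq start was that of the longest complete GENCODE coding transcript for Fos, Jun and Egr2, and lay 6 bases from it for Fosb, 7 for Atf3, 30 for Junb, 671 for Fosl2 and 12577 for Nr4a1. The 150 bases before the start of Fosl2 are exonic in GENCODE and were searched but not shown. The last 6 bases shown for Fosb are exonic in GENCODE, as are 7 bases for Atf3, whose stretch was searched but not shown.

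The members and the gene lists were chosen with earlier results of these data known. Named are all 10 members, in each other list the genes past the cutoffs (at most 4 per organ and direction), and the 10 genes with the highest r among those with a mean of at least 1 FPKM, except that 1 result is not reported here; Srf, Hspa1a, Egr3 and Nr4a2 were added after their values were seen, and so were the measures built on OT1. Groups and replicate numbers were taken from the labels, where OC and OT with one number are 2 different mice. Deviations of the ovary and uterus with the same group and number correlated at 0.074 to 0.254 over genes in 7 of 7 mice, against -0.235 to 0.248 (median -0.082) for other numbers, so that the ranges overlap. Alternatives were other scalings, filters and pseudocounts, an adipocyte covariate, robust eBayes, replicate and mouse blocks, 1 fit of all libraries, OC libraries only, and leaving out each replicate.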

Additional observations from a re-analysis of the deposited data

Results flagged for a closer look

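In the 4 libraries of each OT group, the highest and lowest values of each member were compared with the nearest other value by Dixon's criterion, and 9 of 20 groups held a library far from the rest, where chance marks about 1 in 20. In all 9 that library was the highest, and it was OT1. Fos was at 45.7 FPKM in the OT1 ovary (nearest 5.14) and 47.3 FPKM in the OT1 uterus (nearest 3.71). Fosb was at 11.0 FPKM (nearest 0.808) and 4.97 FPKM (nearest 0.630). Egr1 was at 36.1 FPKM (nearest 12.7) and 32.9 FPKM (nearest 9.99). In the ovary only, Jun was at 73.1 FPKM (nearest 45.3) and Ier2 at 36.2 FPKM (nearest 16.0), and in the uterus only, Junb was at 73.0 FPKM (nearest 25.2). The 9 values come from 2 libraries of 1 mouse and the genes were known from these libraries, so the groups are not independent trials and the count is not read against that rate.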

How the results depend on the processing

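Of the values compared across settings, 98 of the main ones moved by less than their limit and 16 by more, and of those for single genes 521 stayed within their limit (the spread between replicates or the side of the threshold), 15 moved beyond it, 13 turned in direction between the organs and 1 passed a threshold. In addition, OT minus OC values of members, which were not called, took the other sign in 7 of 170 cases in the ovary (6 of them with the adipocyte covariate, and Jun without OT1) and in 14 of 170 in the uterus (8 with the covariate, Fos, Fosb, Fosl2 and Egr1 without OT1, Fos without OC3, and Jun after quantile normalization). OC and OT libraries of one number shared only a number: their deviations correlated at 0.045 to 0.331 in the ovary and at -0.027 to 0.080 in the uterus. With that number as a replicate block and OT4 left out, 2 members (Fos and Fosb) passed the cutoffs in the ovary and 1 (Egr2) in the uterus, and the calls among the 102 other early genes were 2 and 5. With the adipocyte covariate, the members' median was -0.08 for the ovary and -0.64 for the uterus, where the covariate was not well separated from the treatment. In the ovary 2 other early genes passed with the covariate, and 0 did with a pseudocount of 1. Leaving out each replicate gave 0 to 1 members past the cutoffs in the ovary (Egr2 without OC2, Fosb without OT3) and 0 in the uterus, 2 to 4 (2 without OT1, OT2 or OT4) and 1 to 5 other early genes (1 without OC1, 5 without OC3 or OT4), members' medians of 0.24 to 0.55 and 0.02 to 0.74, both lowest without OT1, and 2 to 3 members past the thresholds between the organs (3 without OC3). The uterus minus ovary differences that turned were Junb -0.05 and Ier2 -0.04 after scaling to the 75th percentile, Junb -0.08 and Egr1 0.29 with OC libraries only (the last above its error), and, leaving out a mouse, Junb (-0.08 to 0.11), Ier2 (-0.04 to 0.10), Egr1 (-0.05 to 0.05) and Egr2 (-0.03 to 0.52). The cause was not tested. With no counts and 3 or 4 mice a group, differences smaller than the spread between mice could not be seen.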
